A study of Caenorhabditis elegans with 4 samples.

Results

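The expression of 6 genes of the Gs and cyclic AMP pathway was described in GFP-sorted cells of wild-type *C. elegans*, labeled as cholinergic neurons. They are *gsa-1*, *acy-1*, *acy-2*, *kin-1*, *kin-2* and *pde-4*, and they were found by gene name among the 42518 gene loci of each library, 1 locus for each of the 6. In this pathway a receptor activates the Gs alpha subunit, which stimulates adenylyl cyclase to make cyclic AMP. Cyclic AMP binds the regulatory subunit of protein kinase A (PKA) and frees its catalytic subunit to phosphorylate target proteins, and phosphodiesterases end the signal by hydrolysing cyclic AMP. In *C. elegans* motoneurons the pathway promotes the release of neurotransmitter and acts beside the Gq pathway, which stimulates release, and the Go pathway, which inhibits it.

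The data are RNA-seq of cells sorted for GFP from the wild-type strain CZ631, which carries juIs14[Pacr-2::gfp], with 2 libraries (n = 2) from young adults kept 72 hours at 20°C. GFP under the *acr-2* promoter labels DA, DB, VA and VB motoneurons, and further cells of unknown identity at both ends of the animal. Each value is thus an average over several kinds of cell. The study also has 2 samples of strain CZ5808, which carries the same juIs14 array and the gain of function allele *acr-2(n2420gf)*. They were not analysed here, so all values below come from 1 condition and no test between groups was made.

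Levels are given in FPKM, in which Cufflinks divides the fragments of a gene by transcript length in kilobases and by the mapped fragments of the library. As FPKM is per length, levels of different genes were set side by side. Division by length did not remove all effects of length, since the difference between the libraries still rose with transcript length (below). The labels do not say whether the 2 libraries came from separate cultures, and the spread between them may be technical. They are called library 1 and library 2, as the deposited tables number them. FPKM was above 0 at 13107 loci in library 1 and at 16792 loci in library 2. Fragment counts were not analysed here. Low FPKM values fell in steps near the size of single fragments, from which depths of about 27400000 fragments in library 1 and 33100000 in library 2 were estimated. These estimates are of mapped fragments and lie below the number of reads per sample that the study gives. All 6 cholinergic markers examined were over 10 FPKM in both libraries, among them the vesicular acetylcholine transporter gene *unc-17* (484 ± 126 FPKM, SD, n = 2) and *acr-2* itself (55.7 ± 3.63 FPKM, SD, n = 2). Markers of other tissues were also present. Over 10 FPKM in both libraries were 33.9% of the loci whose symbol belongs to a protein-coding gene. Of the markers, 3 of 5 GABAergic, 5 of 6 body-wall muscle, 4 of 6 intestinal, 3 of 6 hypodermal, 5 of 6 germline and 1 of 5 pharyngeal muscle genes passed. The levels below are therefore those of the sorted cells as a mixture, and how much of each came from the labeled neurons was not tested. Fewer cells of a type and less RNA per cell cannot be told apart in such libraries.

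Of the 6 genes, those of PKA had the highest levels and those of the cyclases the lowest. The order of the 6 genes by mean FPKM was *kin-1*, *kin-2*, *pde-4*, *gsa-1*, *acy-1* and *acy-2*. No neighbours in this order overlapped, since the lower library of each gene lay above the higher library of the next. The closest neighbours were *gsa-1*, with a lower value of 68.1 FPKM, and *acy-1*, with a higher value of 60.5 FPKM. The same order was found in each library taken alone and from the lower bounds of the Cufflinks intervals. Genes over 10 FPKM in both libraries, a limit that the methods of the study also name, were called expressed here, and the study's own list of expressed genes was not used. By this limit 5 of the 6 genes were expressed, compared with 16.2% of all loci and 33.9% of the loci whose symbol belongs to a protein-coding gene. The exception was *acy-2*.

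**Figure D1:**
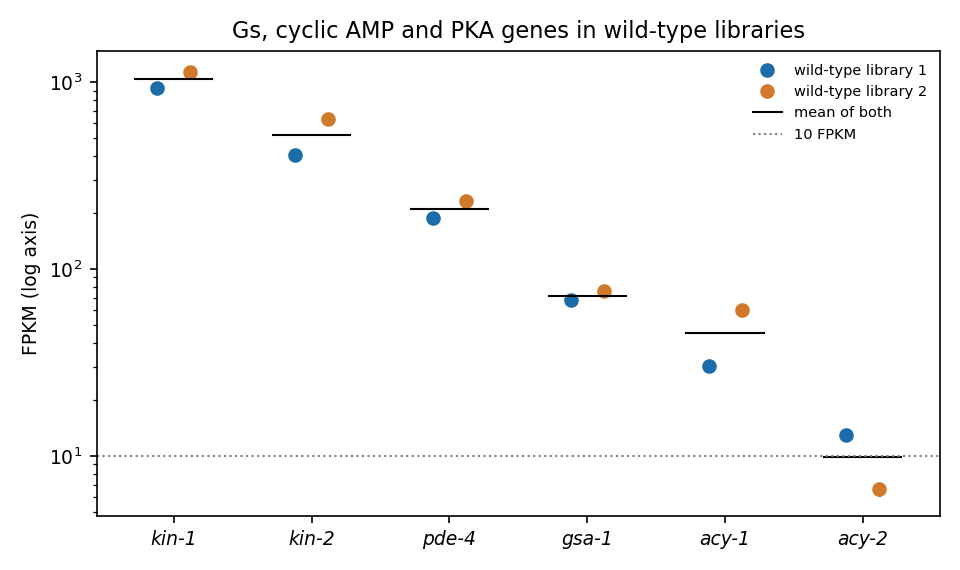
FPKM (log axis) of the 6 genes in wild-type library 1 and library 2 (points), ordered by their mean (line), with the limit of 10 FPKM dotted. The means span 9.80 to 1032 FPKM, no neighbours overlap, and *acy-2* has 1 library on each side of the limit.

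The Gs alpha subunit is encoded by *gsa-1* (WBGene00001745; ce10 chrI:1068990-1074346, plus strand, 2 transcription start sites in the deposited values). It couples receptors to adenylyl cyclase. It had 68.1 FPKM in library 1 and 75.8 FPKM in library 2, with lower bounds of the 95% Cufflinks interval at 64.1 and 71.7 FPKM. Its mean was 72.0 ± 5.46 FPKM (SD, n = 2), at percentile 93.8 of all loci. This was the most even of the 6 genes between the libraries, with a coefficient of variation (CV) of 7.58%, where the median of all expressed loci was 20.3%. Its level was the fourth of the 6.

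Adenylyl cyclase makes cyclic AMP from ATP, and 2 of its genes are among the 6. *acy-1* (WBGene00000068; ce10 chrIII:4722177-4730529, plus strand, 1 start site) had 30.1 FPKM in library 1 and 60.5 FPKM in library 2, with lower bounds of 29.1 and 59.3 FPKM. Its mean was 45.3 ± 21.6 FPKM (SD, n = 2). That is close to the middle of the expressed loci, whose median was 45.6 FPKM. The libraries differed by 2.01-fold, which is far more than the widths of the Cufflinks intervals. These intervals reached at most 6.80% below the FPKM for any of the 6 genes in either library, so for *acy-1* the error that Cufflinks gives is small beside the spread between libraries. Its only annotated transcript is 4234 bp long, and by the estimated depths about 3486 fragments in library 1 and 8489 in library 2 lay behind the values of *acy-1*.

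*acy-2* (WBGene00000069; ce10 chrV:5976012-5981396, plus strand, 1 start site), a second adenylyl cyclase gene, went the other way. It had 12.9 FPKM in library 1 and 6.66 FPKM in library 2, with lower bounds of 12.2 and 6.20 FPKM. Its mean was 9.80 ± 4.44 FPKM (SD, n = 2), and it passed the limit in library 1 alone. With 1 annotated transcript of 3313 bp, about 1174 fragments in library 1 and 730 in library 2 lay behind it. *acy-2* was thus detected in both libraries. Its mean lay under the limit of 10 FPKM but at percentile 80.6 of all loci. The level of *acy-1* was above that of *acy-2* in both libraries, but by 2.32-fold in library 1 and by 9.10-fold in library 2, and the size of this difference was therefore poorly determined.

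The catalytic subunit of PKA, the kinase itself, is encoded by *kin-1* (WBGene00002189; ce10 chrI:14919524-14951556, plus strand, 7 start sites). It had 932 FPKM in library 1 and 1132 FPKM in library 2, with a lower bound of 1092 FPKM in library 2. Its mean of 1032 ± 142 FPKM (SD, n = 2) ranked 345 among all loci, at percentile 99.2. In WBcel235, *kin-1* has 15 annotated transcripts of 1032 to 3415 bp, and the deposited tables give 1 value per library for the locus, so that isoforms were not resolved.

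The regulatory subunit, which holds the kinase inactive until cyclic AMP binds, is encoded by *kin-2* (WBGene00002190; ce10 chrX:5971660-5977819, minus strand, 3 start sites). It had 407 FPKM in library 1 and 634 FPKM in library 2, with lower bounds of 389 and 609 FPKM. Its mean was 520 ± 160 FPKM (SD, n = 2), at percentile 98.7 of all loci. The catalytic subunit gene thus had the higher level in both libraries. The ratio of *kin-1* to *kin-2*, which does not depend on how a library is scaled, was 2.29 in library 1 and 1.79 in library 2.

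The signal is ended by phosphodiesterases, of which *pde-4* (WBGene00020114; ce10 chrII:7628016-7650860, minus strand, 7 start sites) encodes a type specific for cyclic AMP. It had 186 FPKM in library 1 and 230 FPKM in library 2, and a lower bound of 223 FPKM in library 2. Its mean was 208 ± 30.8 FPKM (SD, n = 2), at percentile 97.3 of all loci. Relative to *gsa-1*, it was 2.73-fold higher in library 1 and 3.03-fold higher in library 2, and relative to *acy-1* it was 6.19-fold and 3.79-fold higher.

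Ratios between genes of 1 library differed in how closely the libraries matched. *kin-1* had 5.01 times the FPKM of *pde-4* in library 1 and 4.93 times in library 2. It had 13.7 times the FPKM of *gsa-1* in library 1 and 14.9 times in library 2. The ratios of *gsa-1* to the cyclase genes differed more between the libraries. The ratio of *gsa-1* to *acy-1* was 2.27 in library 1 and 1.25 in library 2, and the ratio of *gsa-1* to *acy-2* was 5.27 in library 1 and 11.4 in library 2. The order of the genes was thus the same in both libraries, but not all proportions were close.

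**Figure D2:**
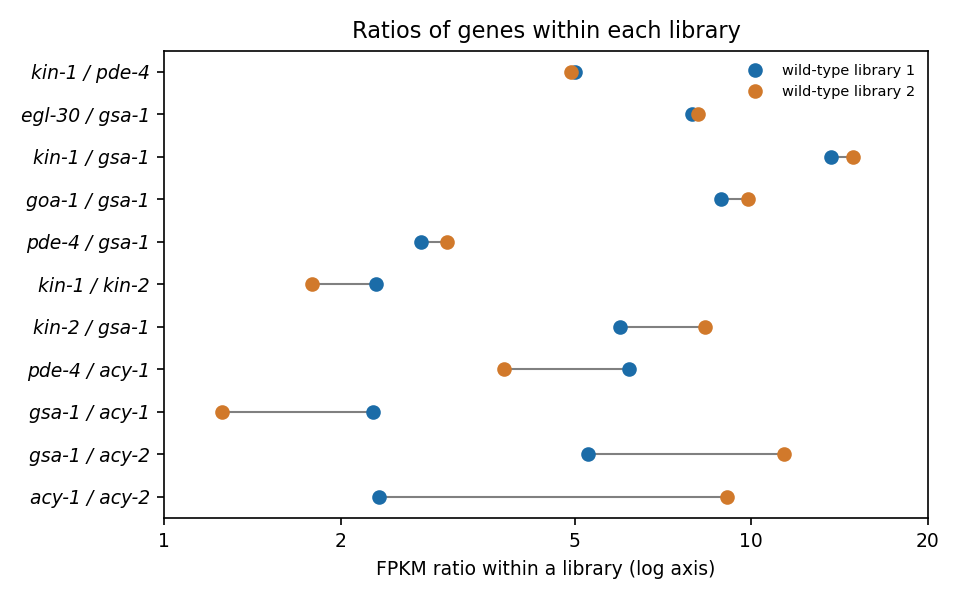
Ratio of the FPKM of 2 genes within library 1 and within library 2 (points joined by a line, log axis), ordered roughly by how far the libraries differ. The ratios of *kin-1* to *pde-4* (5.01 and 4.93) nearly coincide, and those of *acy-1* to *acy-2* (2.32 and 9.10) lie farthest apart.

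To compare the libraries, the log2(FPKM + 1) of library 1 was subtracted from that of library 2, and the median of all expressed loci, 0.12, was subtracted from the difference. *gsa-1*, *kin-1* and *pde-4* then differed by 0.03, 0.16 and 0.18, and *kin-2* by 0.52. *acy-1* was higher in library 2 by 0.87 and *acy-2* lower by a difference of -0.98. Only these 2 of the 6 genes differed by more than 1.5-fold, compared with 45.7% of the loci with a mean over 5 FPKM. Differences of this size were frequent at the same level. Among loci with a mean FPKM within 1.5-fold of that of *acy-1*, 22.8% differed at least as much as *acy-1* did, and for *acy-2* this share was 32.2%. For *gsa-1* it was 94.9%. The 6 genes did not stand apart in this respect, and the opposite signs of *acy-1* and *acy-2* are a description of 2 libraries.

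**Figure D3:**
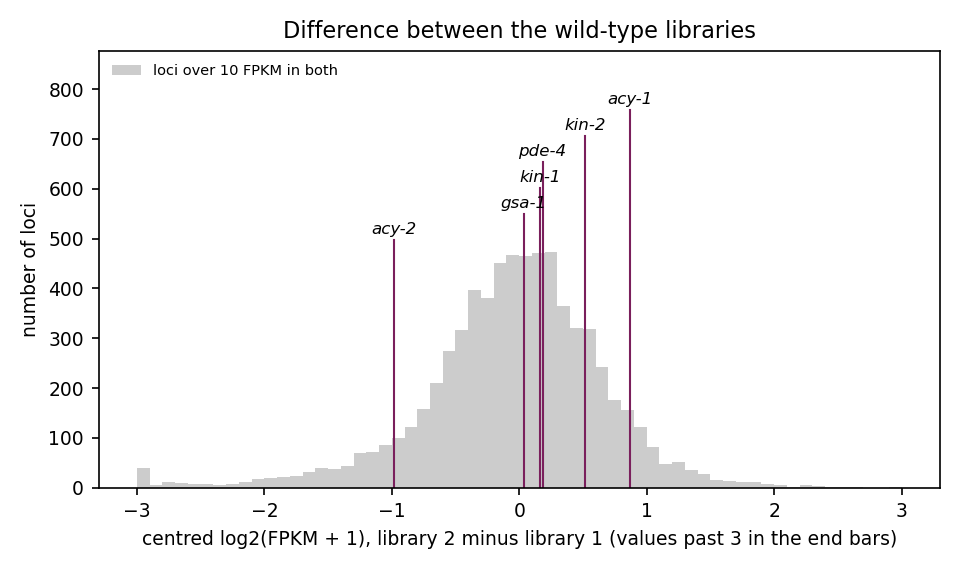
Number of expressed loci (grey bars) by the centred difference in log2(FPKM + 1), library 2 minus library 1, with the 6 genes as lines whose heights are only for legibility. *gsa-1*, *kin-1* and *pde-4* lie near the middle, and *acy-1* (0.87) and *acy-2* (-0.98) lie toward opposite ends.

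Several measures moved with these differences. The median difference rose with transcript length, and was -0.39 in the 10% of expressed loci with the shortest transcripts and 0.23 in the 10% with the longest. *acy-1*, *acy-2*, *kin-1* and *pde-4* are among the 10% with the longest transcripts. Centred on loci of similar length, *acy-1* differed by 0.63 and *acy-2* by -1.22, and the differences of *gsa-1*, *kin-1* and *pde-4* changed sign but stayed small, between -0.07 and -0.05. Marker levels differed as well. The cholinergic markers summed to 1363 FPKM in library 2 and 1014 FPKM in library 1, and 5 of the 6 were higher in library 2. The summed FPKM of the GABAergic markers was 659 in library 2 and 270.0 in library 1, and that of the intestinal markers was 2271 in library 2 and 4648 in library 1. Body-wall muscle markers were almost level, with sums of 7300 FPKM in library 2 and 7372 FPKM in library 1. Hypodermal markers summed to 2774 FPKM in library 2 and 2369.5 FPKM in library 1, and germline markers to 639 FPKM in library 2 and 695 FPKM in library 1, although 5 of the 6 germline markers were higher in library 2 and only *cpg-2* was lower. Summed over the 5 pharyngeal muscle markers, FPKM was 28.2 in library 2 and 50.9 in library 1. Of the 6 intestinal markers 5 were lower in library 2, among them *ges-1*, with 0.863 FPKM in library 2 and 1.46 FPKM in library 1. Only *elt-2* was higher, with 5.36 FPKM in library 2 and 1.68 FPKM in library 1. Of the 6 hypodermal markers 5 were higher in library 2, and *bli-1* was listed at 0 in library 1. The part of length and of other cells in the differences of *acy-1* and *acy-2* was not tested.

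The rest of the pathway was examined with 4 further lists of 26 genes. Of these 18 were expressed, compared with 33.9% of protein-coding loci, a share that also stands beside the counts by list below. The median of the 26 genes was 69.5 FPKM. The median of the 6 genes was 140.0 FPKM. Past 1.5-fold between the libraries were 8 of the 26 genes. Of the 20 with a mean over 5 FPKM there were 5, compared with 45.7% of all such loci. The largest differences were those of *tom-1* and *ric-8*.

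Upstream of *gsa-1*, 3 of 7 receptor genes linked to Gs were expressed, a share near the 33.9% of protein-coding loci. *pdfr-1*, the receptor of the PDF neuropeptides, had 92.7 FPKM in library 1 and 136 FPKM in library 2. *dop-1*, which encodes a D1-like dopamine receptor, had 85.2 and 121 FPKM in libraries 1 and 2. Both receptor genes thus had levels above that of *gsa-1* in each library. *aex-2*, a receptor gene known for its part in the defecation motor program, had 18.5 ± 0.317 FPKM (SD, n = 2), the most even of the 7. The serotonin receptor gene *ser-7* had 17.5 FPKM in library 1 and 9.23 FPKM in library 2, and so lay on both sides of the limit like *acy-2*. The remaining receptor genes, *dop-4*, *ser-5* and *fshr-1*, were under 10 FPKM in both libraries.

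Of the beta and gamma subunit genes, 4 of 4 examined were expressed. Which of them encode partners of the *gsa-1* product was not tested. *gpc-2*, a gamma subunit gene, had 6201 FPKM in library 1 and 5806 FPKM in library 2, the highest of all genes listed here for the pathway. *gpb-1*, the beta subunit gene shared by the G alpha proteins, had 938 and 913 FPKM in libraries 1 and 2, or 13.8 and 12.03 times the FPKM of *gsa-1*. *gpb-2* and *gpc-1* were lower, with means of 107 ± 20.7 and 67.2 ± 10.8 FPKM (SD, n = 2). *ric-8* encodes a protein that acts on G alpha subunits outside the receptor, and had 20.0 FPKM in library 1 and 54.03 FPKM in library 2. It was thus higher in library 2, as *acy-1* was.

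At the step of synthesis, only *acy-1* of 4 cyclase genes was expressed by the limit. *acy-3* had 2.76 FPKM in library 1 and 5.47 FPKM in library 2, and *acy-4* had 2.88 and 2.31 FPKM. *acy-1* held 61.8% of the summed FPKM of the 4 cyclase genes in library 1 and 80.8% in library 2, against 26.6% and 8.88% for *acy-2*. *acy-1* was therefore the leading cyclase gene in both libraries, although its share was not closely fixed by 2 libraries.

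At the step of hydrolysis, 5 of 6 phosphodiesterase genes were expressed, and *pde-4* had the highest level of the 6 in both libraries. *pde-2* had 68.5 FPKM in library 1 and 110 FPKM in library 2, and *pde-4* was above it by 2.72-fold and 2.08-fold. *pde-6* had 97.2 and 79.2 FPKM in libraries 1 and 2, *pde-3* had 93.9 and 58.0 FPKM, and *pde-1* had 40.3 and 44.0 FPKM. *pde-5* was listed at 0 in library 1 and had 0.127 FPKM in library 2. *pde-4* held 38.3% of the summed FPKM of the 6 genes in library 1 and 44.1% in library 2. The family includes enzymes that act on cyclic GMP, so that the sum is not one of cyclic AMP hydrolysis alone. The 6 phosphodiesterase genes together had 10.0 times the FPKM of the 4 cyclase genes in library 1 and 6.95 times in library 2.

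**Figure D4:**
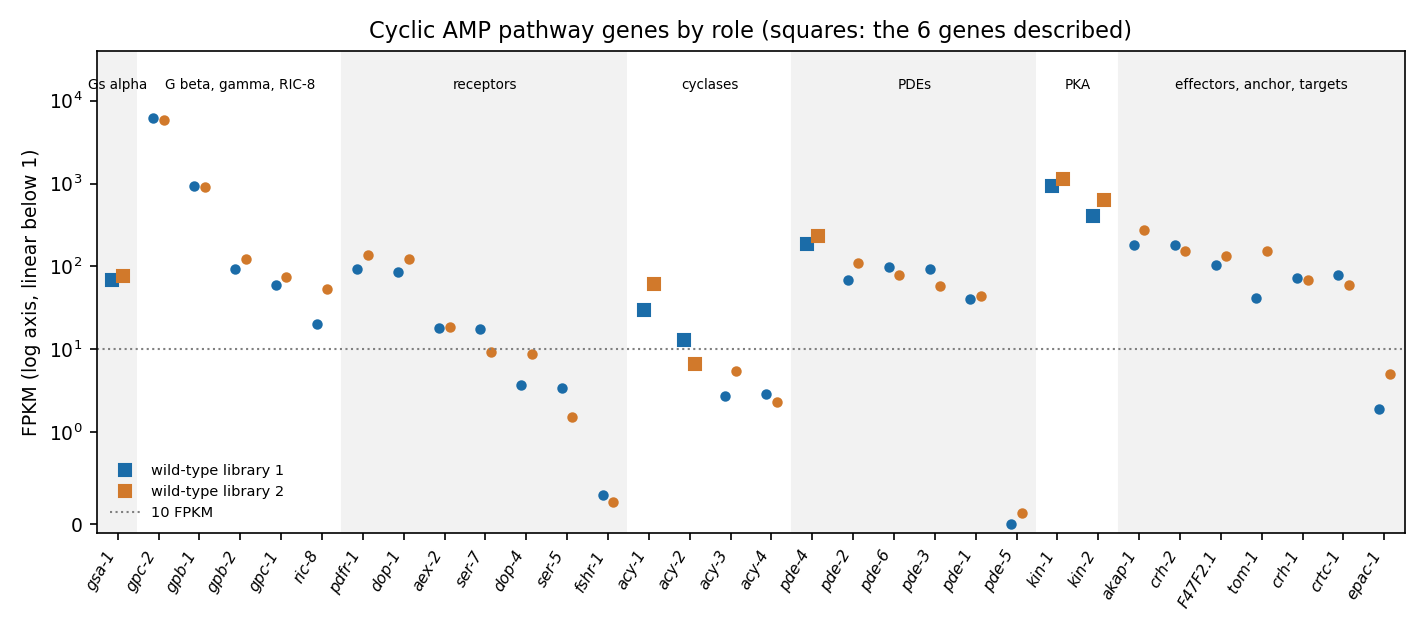
FPKM of the 6 genes (squares) and the 26 further pathway genes (circles) in library 1 and library 2, grouped by role on a log axis that is linear below 1, with the limit of 10 FPKM dotted. The PKA genes and *gpc-2* and *gpb-1* lie highest, and of the 4 cyclase genes only *acy-1* is above the limit in both libraries.

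Downstream, 6 of the 7 genes listed with the cyclic AMP effectors, the PKA anchor and the PKA targets were expressed. *akap-1*, which encodes an anchoring protein for PKA, had 183 FPKM in library 1 and 271 FPKM in library 2. It followed *kin-2*, with 0.450 and 0.428 times its FPKM in libraries 1 and 2. *crh-1*, the gene of the transcription factor CREB that PKA phosphorylates, had 70.6 ± 1.81 FPKM (SD, n = 2), and *crtc-1*, a CREB coactivator gene, had 68.5 ± 13.1 FPKM (SD, n = 2). The related bZIP factor gene *crh-2* had 2.52 and 2.20 times the FPKM of *crh-1* in libraries 1 and 2. *tom-1* encodes tomosyn, an inhibitor of vesicle priming, and had 42.0 FPKM in library 1 and 152 FPKM in library 2, which was the largest difference of the 26 genes. *F47F2.1* was listed with these genes without being assigned to a single role among them. It had 119 ± 20.7 FPKM (SD, n = 2), and *kin-1* had 8.90 and 8.45 times its FPKM in libraries 1 and 2. *epac-1*, the gene of an exchange factor that binds cyclic AMP independently of PKA, had 1.92 and 5.10 FPKM in libraries 1 and 2, and was the only one of the 7 that was not expressed by the limit. Between the effectors of cyclic AMP, the levels of *kin-1* and *kin-2* were thus far above that of *epac-1* in both libraries.

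*gsa-1* was then set beside the other G alpha genes. Of the 21 genes of the family 5 were expressed, compared with 33.9% of protein-coding loci, and the median over the family was 2.69 FPKM. *goa-1*, the Go alpha gene, had 605 FPKM in library 1 and 750 FPKM in library 2. *egl-30*, the Gq alpha gene, had 540 and 615 FPKM. Both were far above *gsa-1*, whose level was exceeded 8.88-fold and 9.90-fold by *goa-1* and 7.92-fold and 8.11-fold by *egl-30* in libraries 1 and 2. *gpa-7* had 73.1 FPKM in library 1 and 97.3 FPKM in library 2, which was 1.07 and 1.28 times the FPKM of *gsa-1*. The values of *gpa-7* and *gsa-1* overlapped over the libraries, so that their order does not exceed their spread. *gpa-16*, with 13.7 and 19.8 FPKM, was the only other expressed member of the family. *gsa-1* held 5.07% of the summed FPKM of the 21 genes in library 1 and 4.71% in library 2, and *goa-1* and *egl-30* together held 85.2% and 84.8%. These shares were close between the libraries.

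**Figure D5:**
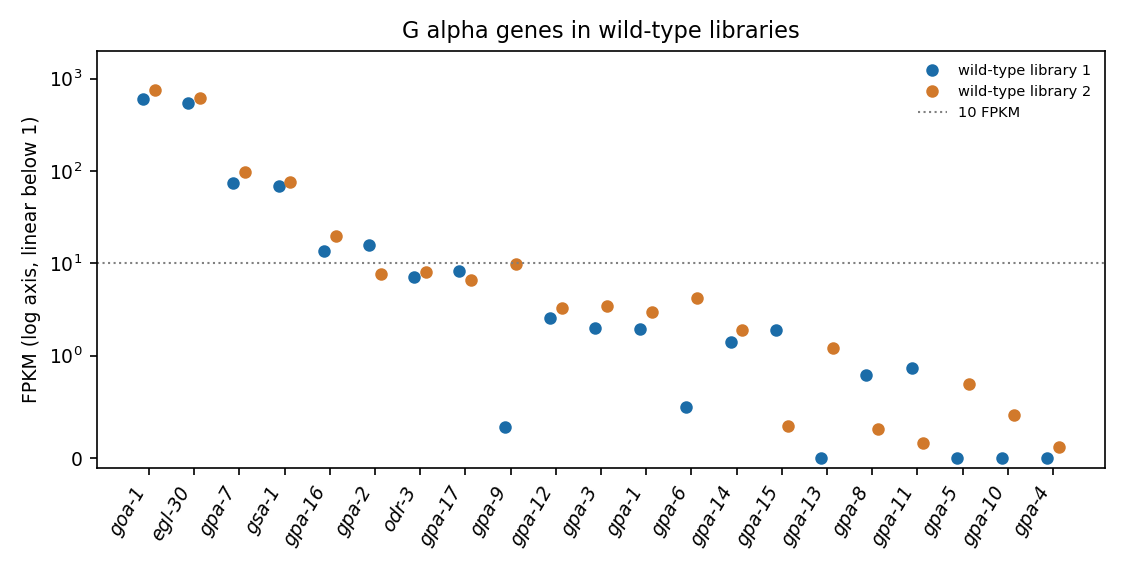
FPKM of the 21 G alpha genes in library 1 and library 2, ordered by mean on a log axis that is linear below 1, with the limit of 10 FPKM dotted. *goa-1* and *egl-30* lie between 540 and 750 FPKM, *gpa-7* and *gsa-1* overlap, and most of the others lie under the limit.

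All 7 genes of the Gq and Go pathways that were examined were expressed, compared with 33.9% of protein-coding loci, and their median was 157 FPKM. Besides *goa-1* and *egl-30*, they include *egl-8* (63.1 ± 15.96 FPKM, SD, n = 2), the phospholipase C beta gene downstream of Gq. The genes of the GTPase activating proteins *egl-10* and *eat-16*, which act on Go and Gq, had 193 ± 85.5 and 119 ± 26.9 FPKM (SD, n = 2), and the diacylglycerol kinase gene *dgk-1* had 56.0 ± 14.3 FPKM (SD, n = 2). The PKA genes exceeded *gsa-1* by 13.7-fold and 14.9-fold for *kin-1* and by 5.97-fold and 8.36-fold for *kin-2* in libraries 1 and 2. No comparison between the pathways was made, since the lists do not hold matching steps.

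Genes lying within the loci of the 6 genes could add to their values. In WBcel235 only non-coding genes lie within *kin-1*, *kin-2* and *pde-4*, all on the opposite strand and with 0 exon bases in common. Among the deposited loci, R07E4.9, within the locus of *kin-2*, was the only such gene above 0, with 0 FPKM in library 1 and 39.6 FPKM in library 2. The deposited locus Y49E10.31 overlapped that of *gsa-1* and was at 0 FPKM in both libraries. No gene lay within *acy-1* or *acy-2*.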

How the data were processed

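RNA-seq values of 2 wild-type libraries were analysed. The authors deposited, for each gene locus, the Cufflinks FPKM and its 95% interval. The submitters' processing notes name TopHat, Cufflinks and the ce10 build, without versions. FPKM and the lower bound were used, and the upper bounds, 2 columns in all, were not. The columns do not name samples, so the libraries carry the numbers of the deposited tables and were not matched to single samples. Both tables were joined 1 to 1 on start sites and locus, and 11 gene names that had turned into dates in library 1 were taken from library 2.

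Expression was called over 10 FPKM in both libraries. Differences used a pseudocount of 1 and were centred on the median of expressed loci. The centring was run on simulated data, which cannot show how well it holds for these libraries. It leaves the rise of the difference with transcript length in place. With the pseudocount of 1 the change of low genes is understated. Loci with a mean over 5 FPKM were used for the share past 1.5-fold, and loci within 1.5-fold of a gene's mean for its context. These limits and the estimate of depth were chosen after the data were seen. The estimate of depth took genes with 1 transcript of 1000 to 4000 bp and the step at which their FPKM times length came nearest to whole fragments. Within 0.2 fragment of a whole number were 71.1% of 114 such values in library 1 and 56.5% of 363 in library 2. Values spread evenly would give 36.4% at a step fixed beforehand. The step was chosen on these same values, so part of the excess was built in and the depths are approximate. As many values lay off whole numbers, exact fragments were not recovered gene by gene and no count test was run. The fragments given for *acy-1* and *acy-2* are approximate for the same reason. Transcript lengths, biotypes and exons were taken from the WBcel235 annotation (Ensembl), and its coordinates were not mixed with the ce10 loci. Of the expressed loci, 98.0% had a length. Genes are named as members of the 6, of the pathway, G alpha and marker lists, or as the 2 genes nearest in level to each of the 6. The members and lists were chosen with earlier results of these data known. With 1 condition, no p-value was computed. The alternatives were other limits, TPM, upper-quartile scaling, other pseudocounts and centrings, the lower bounds, and each library left out. Sequences were not used here. Python 3.11.15, numpy 2.4.6, pandas 2.3.3 and matplotlib 3.10.9 were used.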

Additional observations from a re-analysis of the deposited data

How the results depend on the processing

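No paired analysis was possible because only 1 condition was analysed. The order of the 6 genes was the same under the lower bounds and in each library alone. It was also the same under TPM, which could not change it, since TPM scales all genes of a library by a single factor. At a limit of 1 or 5 FPKM and in library 1 alone all 6 genes were over the limit, and 5 otherwise, *acy-2* being the exception. Of the 26 further genes 16 to 24 were over the limits tried, the lowest count at 20 FPKM and the highest at 1 FPKM, and 18 to 19 with a library left out. Without centring, or centred on the upper quartile, 3 of the 6 genes differed by more than 1.5-fold in place of 2, the added one being *kin-2* (0.64 and 0.65). Over all centrings and pseudocounts the difference of *acy-1* stayed between 0.63 and 1.00 and that of *acy-2* between -1.22 and -0.85. The ratio of *kin-1* to *kin-2* averaged 2.04 over the libraries, 2.05 from the lower bounds, and ranged over 1.79 to 2.29 with a library left out. Values in TPM were lower by a near constant factor, with means of 595 for *kin-1*, 302 for *kin-2*, 119.9 for *pde-4*, 41.4 for *gsa-1*, 26.4 for *acy-1* and 5.54 for *acy-2*. For each of the 6 genes, the lower of the 2 FPKM values lay under the lower Cufflinks bound of the higher one. The values were not centred and the upper bounds were not used, so it was not shown that the intervals lie apart. For *gsa-1* the CV of 7.58% was close to the reach of its Cufflinks interval in library 1, 5.91%. Its centred difference was 0.03. The spread between the libraries was largest for *acy-1* and *acy-2*, with CVs of 47.6% and 45.3%, and 30.8% for *kin-2*.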

Other observations

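The genes nearest to each of the 6 in level were taken from the 3664 expressed loci with a short gene symbol (3665 for *acy-2*), by the Euclidean distance of log2(FPKM + 1) over the 2 libraries. They were *egg-1* and *plp-2* for *gsa-1* (0.03 each), *mec-1* and *egl-5* for *acy-1* (0.05 and 0.07), and *xbp-1* and *his-41* for *kin-1* (0.05 and 0.06). For *kin-2* they were *unc-17*, the vesicular acetylcholine transporter gene, and *col-103* (0.15 and 0.17), and for *pde-4* they were *smd-1* and *aly-3* (0.06 each). For *acy-2* the nearest were *pgrn-1* and *egl-44* (0.53 and 0.55), at a larger distance since all candidates were over 10 FPKM in both libraries. With 2 libraries and 3664 candidates, such likeness in level is a description only.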
